A study of Mus musculus with 18 samples.

Results

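Oxidative phosphorylation genes were followed in the RNA of mouse neurospheres (NSPs) and of astrocytes differentiating from them. The members were chosen by symbol, with earlier results of these data known: protein-coding genes named as subunits of complex I (Nduf), complex II (Sdh), complex III (Uqcr), complex IV (Cox4 to Cox8) or complex V (Atp5), and the protein genes of mitochondrial DNA (mtDNA). This gave 98 of the 54838 genes in the table, 85 in the nucleus and 13 in mtDNA. The libraries came from 6 conditions with 3 replicates each, all from wild type C57BL/6J mice at embryonic day 14. Stem cells were prepared from single brains, and NSPs proliferated in medium with EGF. Astrocytes were obtained in medium with 10% fetal bovine serum, and were sampled after 24 h and 72 h, in each case untreated and TNF-treated (50 ng/ml), and untreated after 1 week.

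The NADH and succinate dehydrogenases (complexes I and II) pass electrons through complex III to complex IV, cytochrome c oxidase, and the proton gradient built on the way drives ATP synthase, complex V. Complex II is encoded wholly in the nucleus, whereas the other complexes join nuclear subunits with a core of subunits made inside the organelle from mtDNA, which is transcribed as long RNAs from both strands and then cut into single messages. Neural stem cells and astrocytes are both known for a strong use of glycolysis, and the balance of glycolysis and respiration is known to shift during neural differentiation.

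Of the members, 78 nuclear and 9 mtDNA genes passed edgeR's filter on low counts and were tested. Total counts per library ranged from 12509693 to 22549627, and levels are given as CPM, the counts of a gene scaled to a common library size with TMM factors. The study describes its data in general as independent biological experiments, but the labels do not tie these replicates to separate cultures or animals, and the p-values measure only the spread between these libraries, which may be technical. Mki67, a proliferation marker, had means of 473 CPM in NSPs, 41.0 CPM at 24 h and 1.39 CPM at 72 h, and Gfap, an astrocyte marker, was at 27.1 CPM in NSPs, 898 CPM at 24 h, 2429 CPM at 72 h and 63.3 CPM at 1 week. The 10 astrocyte markers did not move together: from NSPs to 72 h, 4 were higher and 3 lower, among the latter Aldoc (log2 fold change -1.02) and S100b (log2 fold change -0.63). They summed to 5177 to 5433 CPM per library in NSPs, 5963 to 8394 CPM at 72 h and 3036 to 3541 CPM at 1 week. Of 6 microglial markers the summed level was 1.15 to 3.87 CPM per library. The oligodendrocyte markers Mbp, Mog, Mag and Mobp and the neuronal marker Stmn2 stayed under a mean of 1 CPM in all 6 conditions, although the 6 markers of each list summed to 70.6 to 503 CPM (oligodendrocyte) and 1426 to 2089 CPM (neuron) per library. Most of the neuron sum was Map2, with condition means of 1529 to 1868 CPM. Most of the oligodendrocyte sum was Cnp, with condition means of 94.0 to 451 CPM. The part of other cell types in the results was not tested. Replicate 1 at 24 h with TNF and replicate 1 at 72 h with TNF stood apart, with 6.24% and 8.01% of counts on mtDNA against 1.6% to 5.02% in the other libraries, and results that rest on them are given with and without them. Over all genes, NSP replicate 1 also lay far from its replicates. The chi-square per degree of freedom of the counts was 46.39 and 40.54, against 3.713 between NSP replicates 2 and 3. Fits without NSP replicate 1 are among those that left out single libraries.

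The mtDNA genes differed widely in their counts and in the sequence they share with the nuclear genome. Mouse chromosome 1 carries a nearly identical copy of part of mtDNA, annotated as pseudogenes between positions 24611535 and 24616197 (GRCm38). Of all 75-base windows, the read length, mt-Co3 shared 99.9% with another annotated transcript, mt-Co2 99.5%, mt-Atp6 99.5%, mt-Nd4l 98.7% and mt-Nd3 97.8%. Of these 5 genes, 4 were nearly empty: mt-Co2 had 1 to 13 counts per library, mt-Co3 1 to 12, mt-Atp6 0 to 10 and mt-Nd4l 0 to 4. mt-Nd3 had 39 to 203 counts per library (2.74 to 12.8 CPM). The pseudogenes were nearly empty as well, and none of those with the most shared windows exceeded 1.38 CPM in any library. By contrast, mt-Co1, which encodes the catalytic core of complex IV and shared 39.8% of its windows, had 9622 ± 241 CPM in NSPs (SD, n = 3) and made up 49.5% to 69.8% of all counts in mtDNA protein genes. The handling of reads that fit several places is not given in the sources used here, and its part in these levels was not tested.

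**Figure D1:**
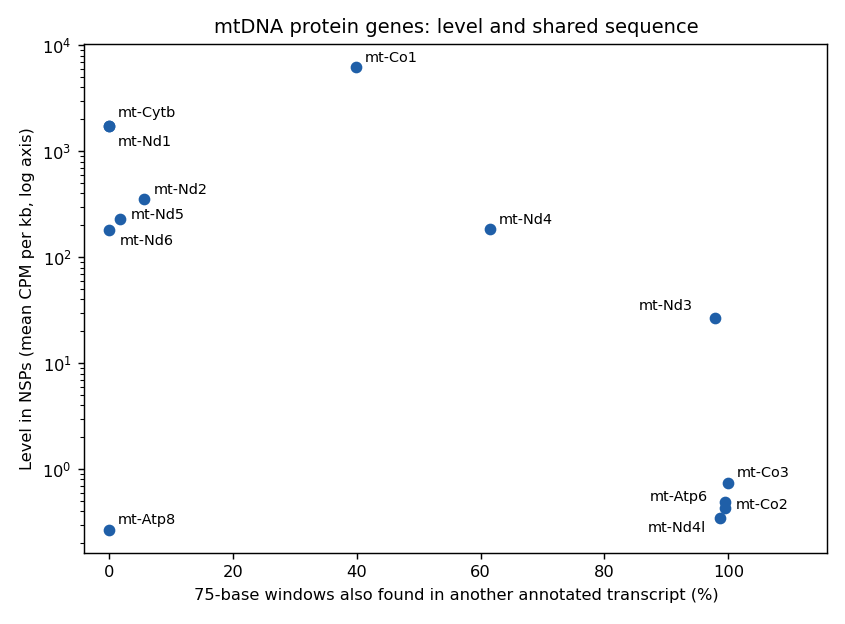
Each point is a protein gene of mtDNA, placed by the percent of its 75-base windows that another annotated transcript also holds (horizontal axis) and by its mean level in NSPs in CPM per kb of transcript (vertical log axis, n = 3). The 5 genes above 97% sharing lie below the genes with less sharing, apart from mt-Atp8, which shares none.

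mt-Atp8 shared no window with another transcript under this count but had only 0 to 3 counts per library. It encodes a small subunit of complex V, and its end overlaps the start of mt-Atp6 by 43 bases at chrM:7927-7969 (GRCm38, plus strand). The overlap is shown because bases here belong to both genes, and its capitals mark the start codon of mt-Atp6 and the stop codon of mt-Atp8.
mt-Atp8 and mt-Atp6 overlap: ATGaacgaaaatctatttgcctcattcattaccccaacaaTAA
mt-Nd5 and mt-Nd6 overlap by 14 bases on opposite strands, and the strand setting of the counting is not given in the sources used here, so the values of mt-Nd6, the only protein gene read from the other strand, are uncertain. Sums over the mtDNA genes therefore describe mainly mt-Co1, mt-Cytb, mt-Nd1, mt-Nd2, mt-Nd4 and mt-Nd5.

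Per length, the nuclear members spanned a wide range. Their mean level over the conditions had a median of 74.9 CPM per kb and reached 503 CPM per kb for Atp5b, the catalytic beta subunit of complex V. Atp5a1, the alpha subunit beside it, had 396 CPM per kb. In complex IV, Cox4i1 led with 378 CPM per kb, in complex III Uqcrh, the hinge protein, with 289 CPM per kb, in complex I Ndufa4 with 262 CPM per kb (a subunit now assigned to complex IV by many), and in complex II Sdha, the flavoprotein, with 123 CPM per kb. The 7 nuclear members that were not tested were the tissue-restricted isoforms Cox4i2, Cox6a2, Cox7b2, Cox8b, Cox8c and Ndufa4l2, with at most 13 counts in any library, and a second annotated Atp5o gene (ENSMUSG00000116933) with 0 counts in all 18 libraries. These isoforms were thus near the limit of detection in all conditions.

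Most nuclear members were lower at 24 h, 72 h and 1 week of differentiation than in NSPs. At 24 h 49 of 78 were lower and 1 was higher, where 52.7% of all 20067 tested genes were called, 25.5% lower and 27.2% higher. At 72 h 62 were lower and 2 higher (55.3% of all tested genes called, 27.2% lower and 28.1% higher), and at 1 week 59 were lower and 2 higher (58.6% called, 29.1% lower and 29.6% higher). All 3 libraries lay below all NSP libraries for 51 members at 24 h, 63 at 72 h and 64 at 1 week, as they did for 29.6%, 29.3% and 31.7% of all tested genes, and all lay above for 1, 1 and 2 members, against 31.8%, 30.5% and 32.9%. The median log2 fold change of the 78 was -0.46 at 24 h, -0.75 at 72 h and -0.71 at 1 week, against 0.06, 0.05 and 0.06 over all tested genes. These calls came from edgeR's quasi-likelihood test at an adjusted p under 0.05. Of the 78 genes, 46 were called lower at all 3 times and 13 at none, against 19.1% and 64.3% of all tested genes. Those called at none included Ndufa11, Ndufa13, Ndufb7, Ndufv1, Sdhc and Atp5e. The 24 h count rested on single libraries more than the later ones: it was 31 without replicate 1 or without replicate 3 at 24 h, where calls over all genes also fell, to 44.3% and 43.1%, whereas it stayed between 58 and 64 at 72 h and between 55 and 66 at 1 week when any library was left out.

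**Figure D2:**
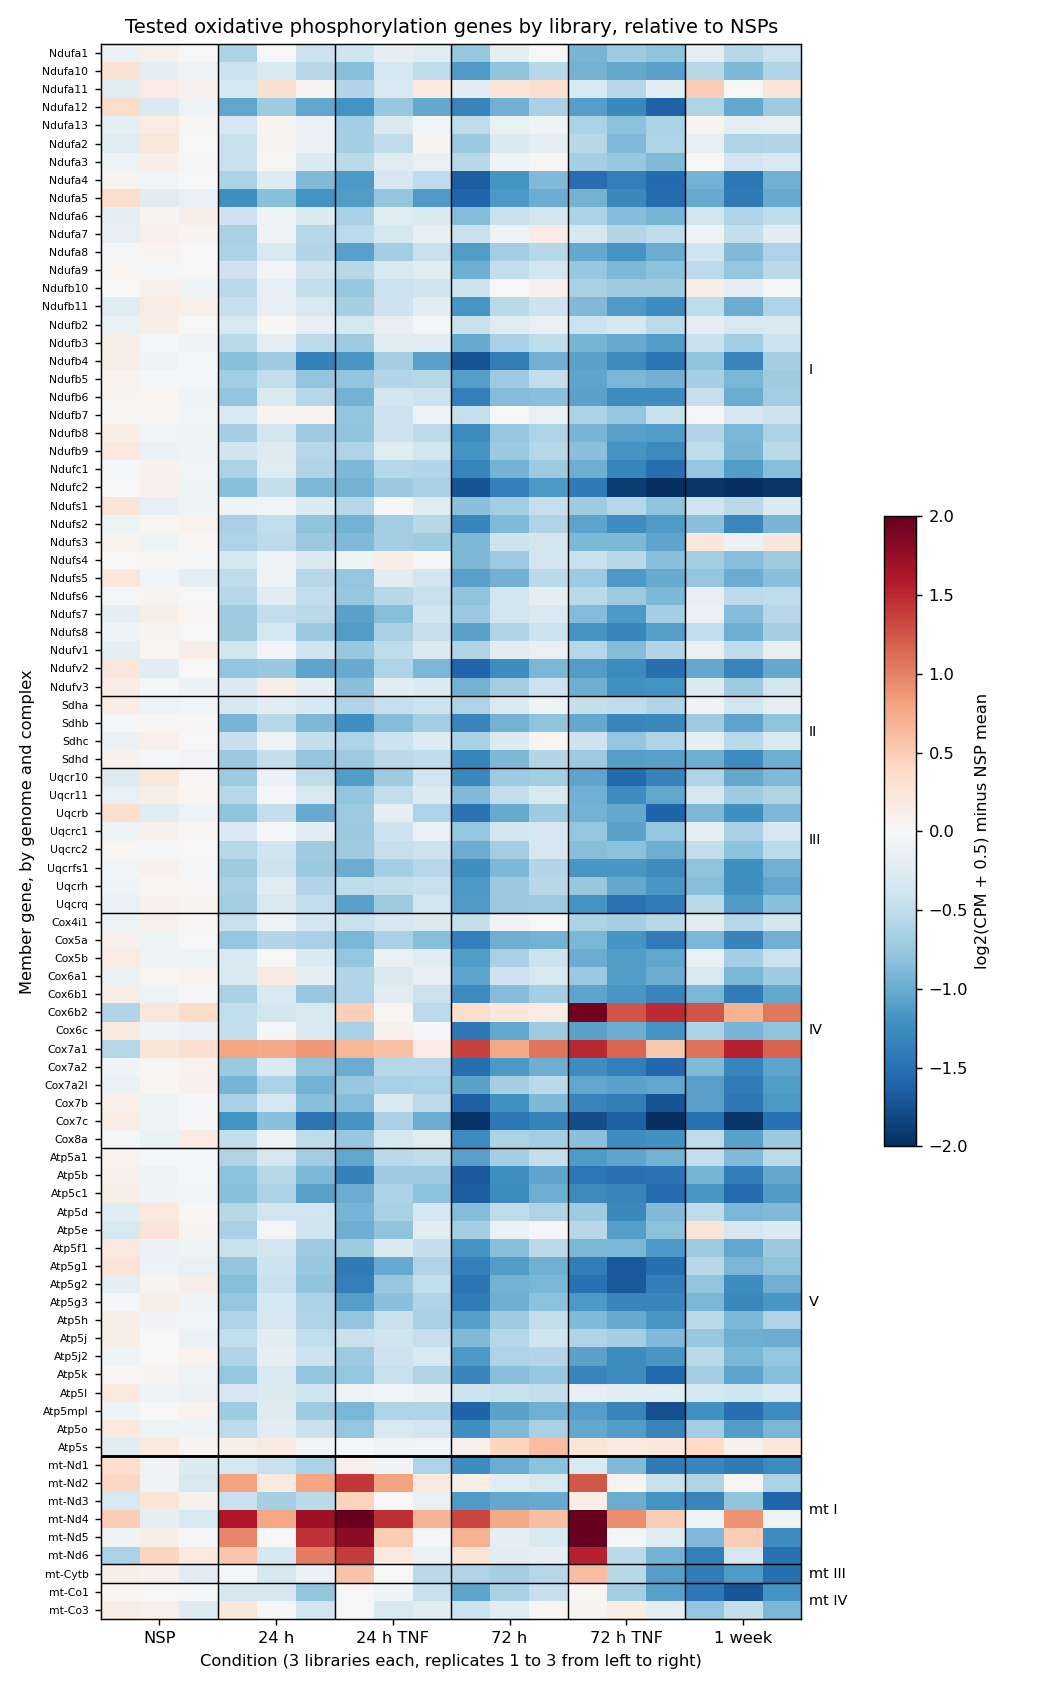
Rows are the 87 tested members ordered by genome and complex, columns the 18 libraries, and colour the log2 of CPM + 0.5 minus the NSP mean of the gene, cut at 2 in either direction. Most nuclear rows are blue from 24 h on. Cox7a1 turns red, whereas Cox6b2 is blue at 24 h without TNF and red at 72 h with TNF and at 1 week. mt-Nd4 is red in all libraries of 24 h and 72 h with or without TNF, and mt-Nd5 and mt-Nd6 are red in replicates 1 and 3 of 24 h and replicate 1 of both TNF conditions, and blue in replicates 1 and 3 of 1 week.

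RNA composition moved with this decrease. The share of counts in protein-coding genes was 91.1% to 92.9% in NSPs and 82.6% to 90.8% in the other libraries, and the nuclear long RNA Malat1 took 1.5% to 2.24% against 3.44% to 6.46%. The study reports a wide range of RNA quality scores over its samples, without giving them by library. The part of RNA quality in the lower values was not tested. The members are also short: their principal transcripts had a median of 849.5 bases against 3062 bases over all tested protein-coding genes. Among the 815 tested coding genes under 1000 bases, the median log2 fold change was -0.36 at 24 h, -0.36 at 72 h and -0.44 at 1 week, and the 46 members of that length had medians of -0.42, -0.78 and -0.71. The 32 longer members had medians of -0.52, -0.73 and -0.76, where all coding genes had -0.14, -0.12 and -0.14. In bulk cultures, fewer cells with a high level and less RNA per cell cannot be told apart.

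In complex V, 15 of 17 genes were lower at each of the 3 times. Atp5b had 1838, 1635 and 1703 CPM in NSPs, 971, 1176 and 920 CPM at 24 h, 540, 735 and 830 CPM at 72 h, and 905, 659 and 844 CPM at 1 week. No differentiated library reached the lowest NSP value. The log2 fold change from NSPs was -0.75 at 24 h (SE 0.18, adjusted p = 0.00176), -1.30 at 72 h (SE 0.18, adjusted p = 7.16e-06) and -1.10 at 1 week (SE 0.18, adjusted p = 3.79e-05). Atp5c1, the gamma subunit of the rotating stalk, fell by a similar amount, with log2 fold changes of -0.85, -1.28 and -1.27. Atp5s, a coupling factor rather than a core subunit, went the other way, with 6.34 to 8.72 CPM in NSPs and 8.16 to 11.9 CPM at 72 h, and was called higher at 72 h (log2 fold change 0.41, SE 0.17, adjusted p = 0.0472). This call held in 2 of the 6 fits that left out a library, and was lost without replicate 1 or 3 of NSPs or replicate 2 or 3 of 72 h.

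Complex I had the largest decrease of any nuclear member. Ndufc2, an accessory subunit of its membrane arm, had 246, 260 and 232 CPM in NSPs, 138, 176 and 131 CPM at 24 h, 74.1, 95.2 and 110 CPM at 72 h, and 63.3, 48.4 and 63.1 CPM at 1 week. Its level stepped down at each time, and these 4 conditions did not overlap. The log2 fold change from NSPs was -0.73 at 24 h (SE 0.17, adjusted p = 0.0017), -1.40 at 72 h (SE 0.17, adjusted p = 1.92e-06) and -2.08 at 1 week (SE 0.18, adjusted p = 1.38e-08). Of the 36 tested nuclear genes of complex I, 21 were lower at 24 h, 26 at 72 h and 25 at 1 week, and none was higher. Ndufv2, an iron-sulfur protein at the site where NADH is oxidised, was at 165 ± 26.3 CPM in NSPs and 69.6 ± 16.2 CPM at 72 h, and Ndufa5, an accessory subunit, fell from 55.3 ± 12.4 to 23.1 ± 4.66 CPM (SD, n = 3 each).

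In complex II, Sdhb, the iron-sulfur subunit, and Sdhd, a membrane anchor, were lower at each time, with log2 fold changes of -0.79 and -0.66 at 24 h, -1.01 and -0.90 at 72 h, and -0.86 and -1.07 at 1 week. Sdha moved less, with 411 to 487 CPM in NSPs and 287 to 410 CPM at 72 h (log2 fold change -0.32, SE 0.13, adjusted p = 0.0382), a call lost without replicate 1 or 3 of NSPs or replicate 1 or 2 of 72 h. Sdhc, the other anchor, was not called at any time, with log2 fold changes of -0.34, -0.26 and -0.33. In complex III, 5 of 8 genes were lower at 24 h, 8 at 72 h and 7 at 1 week. Uqcrh fell from 225 to 243 CPM (NSPs) to 101 to 130 CPM at 1 week (log2 fold change -1.04, SE 0.15, adjusted p = 1.23e-05), and Uqcrfs1, the Rieske iron-sulfur protein, had a log2 fold change of -1.0 there.

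Complex IV held strong decreases and also increases. Cox7c, a small structural subunit, had 201, 168 and 175 CPM in NSPs, 78.7, 101 and 65.7 CPM at 24 h, 46.0, 65.8 and 71.4 CPM at 72 h, and 64.1, 46.4 and 63.9 CPM at 1 week. All differentiated libraries were below all NSP libraries, with log2 fold changes of -1.14 at 24 h (SE 0.19, adjusted p = 8.09e-05), -1.57 at 72 h (SE 0.19, adjusted p = 1.78e-06) and -1.64 at 1 week (SE 0.19, adjusted p = 8.97e-07). Since 50.4% of its 75-base windows also occur in annotated pseudogenes, its counts are less certain. Of the 13 tested genes of the complex, 6 were lower at 24 h, 10 at 72 h and 10 at 1 week. Cox4i1, the main form of the subunit that gates the enzyme, moved less, with 330 to 374 CPM in NSPs, 255 to 352 CPM at 72 h and 239 to 304 CPM at 1 week (log2 fold change -0.38 at 1 week, SE 0.13, adjusted p = 0.0201, lost without replicate 2 of NSPs or of 1 week).

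Isoforms of a subunit parted. Cox7a1, the form known from heart and skeletal muscle, had 0.19, 0.713 and 0.796 CPM in NSPs, 1.28, 1.23 and 1.38 CPM at 24 h, 2.12, 1.23 and 1.65 CPM at 72 h, and 1.68, 2.52 and 1.83 CPM at 1 week. These differentiated libraries were all above the NSPs, with 3 to 14 counts in NSPs and 17 to 46 counts later, and the log2 fold change was 1.16 at 24 h (SE 0.43, adjusted p = 0.03), 1.51 at 72 h (SE 0.41, adjusted p = 0.00464) and 1.79 at 1 week (SE 0.40, adjusted p = 0.000946). The call at 24 h held in 2 of 6 fits without a library (not without replicate 1 of NSPs or any 24 h library), those at 72 h and 1 week in 6 of 6. Over the same times its ubiquitous counterpart Cox7a2 fell from 148 to 165 CPM (NSPs) to 63.7 to 85 CPM at 1 week (log2 fold change -1.08, SE 0.17, adjusted p = 2.36e-05), and stayed far above Cox7a1 throughout. Cox7a2l, a related protein that helps join complexes III and IV into supercomplexes, fell as well, with a log2 fold change of -1.20 at 1 week. Cox6b2, known as the testis form, rose at 1 week from 0.317 to 1.08 CPM in NSPs to 1.48 to 2.43 CPM (log2 fold change 1.33, SE 0.39, adjusted p = 0.00684), whereas the common form Cox6b1 fell from 196 to 226 CPM to 78.8 to 111 CPM (log2 fold change -1.11, SE 0.16, adjusted p = 1.46e-05). At 24 h without TNF all Cox6b2 libraries lay below its NSP mean of 0.776 CPM, within the range of the NSP libraries. The differences between isoforms were not themselves tested.

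**Figure D3:**
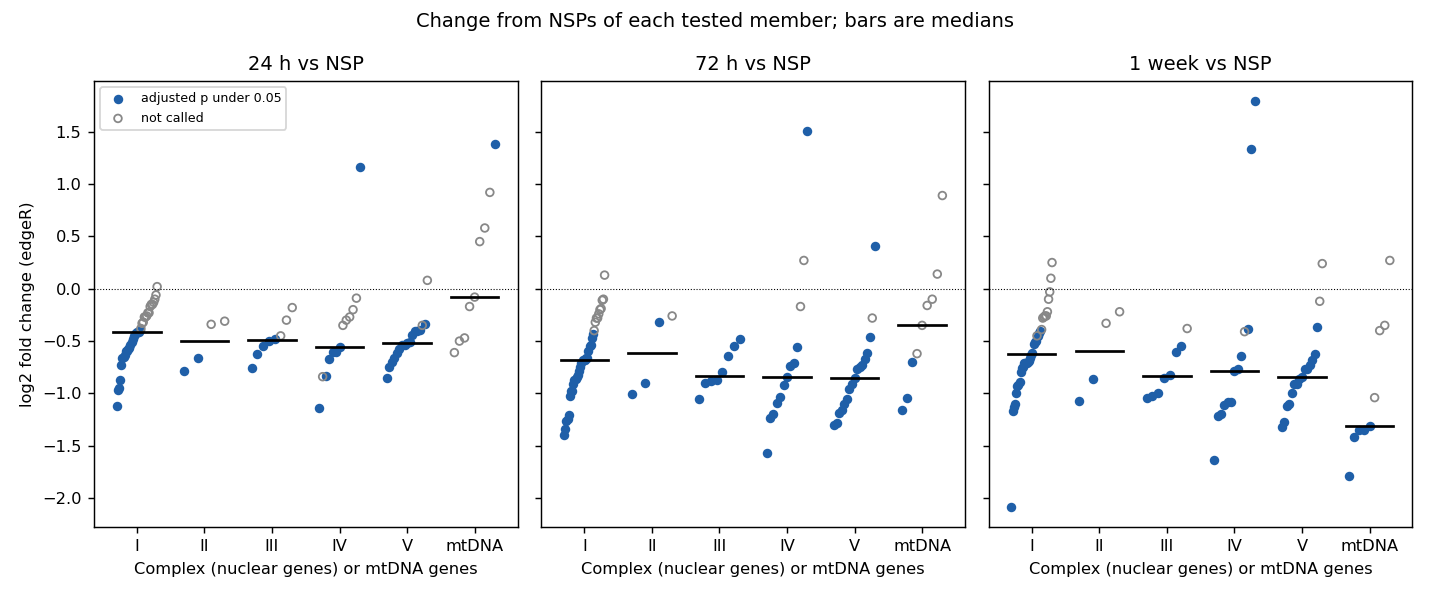
Each point is a tested member, with its edgeR log2 fold change from NSPs on the vertical axis at 24 h, 72 h and 1 week, grouped by complex for nuclear genes and with mtDNA genes at the right. Filled points had an adjusted p under 0.05, and the bars (medians) lie below 0, that of mtDNA genes at 24 h only at -0.08, a value whose sign turned when single libraries were left out.

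The mature c subunit of complex V, which forms the rotor ring, is encoded by 3 nuclear genes whose products differ only in the import signal that is cut off. All 3 fell together: the log2 fold changes at 72 h were -1.16 for Atp5g1, -1.10 for Atp5g2 and -1.05 for Atp5g3, and at 1 week -0.77, -1.0 and -1.12. Atp5g2 shares 86.9% of its 75-base windows with other annotated transcripts, so its own part of these counts is uncertain. Promoter windows (RefSeq, GRCm38.p6, 300 bases with 250 before the start) were found for 68 member genes. The windows of the c subunit genes, of the pair Cox7a1 and Cox7a2 that moved in opposite directions, and of the genes with the largest decreases, Ndufc2 and Cox7c, are shown 5′ to 3′ on the strand of the gene. Capitals mark matches on either strand to the letters searched for NRF1 (GCGCN followed directly by TGCGC), ETS factors (CCGGAAG), YY1 (AAGATGGC), ERR alpha (CAAGGTCA) or a TATA box (TATAAA). The windows lie at chr11:96075582-96075881 (minus strand) for Atp5g1, chr15:102670998-102671297 (minus) for Atp5g2, chr2:73911277-73911576 (minus) for Atp5g3, chr7:30183921-30184220 (plus) for Cox7a1, chr9:79759804-79760103 (minus) for Cox7a2, chr7:97399753-97400052 (plus) for Ndufc2 and chr13:86046746-86047045 (minus) for Cox7c.
Atp5g1: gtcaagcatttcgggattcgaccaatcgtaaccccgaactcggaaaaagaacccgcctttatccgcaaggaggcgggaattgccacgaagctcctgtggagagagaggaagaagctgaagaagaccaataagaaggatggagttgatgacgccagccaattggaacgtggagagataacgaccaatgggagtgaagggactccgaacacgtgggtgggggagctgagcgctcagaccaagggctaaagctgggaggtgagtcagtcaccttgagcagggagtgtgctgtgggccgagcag
Atp5g2: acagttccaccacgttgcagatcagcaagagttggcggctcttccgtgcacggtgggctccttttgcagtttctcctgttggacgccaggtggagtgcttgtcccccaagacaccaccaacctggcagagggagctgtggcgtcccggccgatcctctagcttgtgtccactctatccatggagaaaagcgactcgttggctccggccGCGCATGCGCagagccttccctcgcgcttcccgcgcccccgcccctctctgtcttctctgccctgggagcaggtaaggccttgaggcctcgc
Atp5g3: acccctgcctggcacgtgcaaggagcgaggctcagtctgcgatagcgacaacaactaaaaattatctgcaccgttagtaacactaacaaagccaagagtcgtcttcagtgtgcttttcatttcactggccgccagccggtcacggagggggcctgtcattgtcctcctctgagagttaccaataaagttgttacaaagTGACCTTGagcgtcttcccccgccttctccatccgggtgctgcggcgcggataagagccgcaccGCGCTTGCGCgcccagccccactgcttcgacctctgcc
Cox7a1: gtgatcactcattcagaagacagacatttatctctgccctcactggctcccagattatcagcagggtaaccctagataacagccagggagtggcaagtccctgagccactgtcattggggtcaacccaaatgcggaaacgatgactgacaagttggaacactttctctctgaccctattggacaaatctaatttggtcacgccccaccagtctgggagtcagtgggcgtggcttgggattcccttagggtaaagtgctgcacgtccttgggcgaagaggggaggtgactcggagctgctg
Cox7a2: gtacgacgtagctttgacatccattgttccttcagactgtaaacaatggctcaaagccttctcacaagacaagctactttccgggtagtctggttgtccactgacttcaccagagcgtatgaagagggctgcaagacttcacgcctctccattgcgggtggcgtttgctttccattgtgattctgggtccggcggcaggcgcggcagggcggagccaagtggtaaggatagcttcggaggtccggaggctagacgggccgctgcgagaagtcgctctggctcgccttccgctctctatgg
Ndufc2: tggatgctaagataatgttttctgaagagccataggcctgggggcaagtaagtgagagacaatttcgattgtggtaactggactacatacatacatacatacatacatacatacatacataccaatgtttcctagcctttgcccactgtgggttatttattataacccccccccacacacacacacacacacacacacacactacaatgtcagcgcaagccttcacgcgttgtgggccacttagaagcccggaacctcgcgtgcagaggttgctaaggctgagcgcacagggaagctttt
Cox7c: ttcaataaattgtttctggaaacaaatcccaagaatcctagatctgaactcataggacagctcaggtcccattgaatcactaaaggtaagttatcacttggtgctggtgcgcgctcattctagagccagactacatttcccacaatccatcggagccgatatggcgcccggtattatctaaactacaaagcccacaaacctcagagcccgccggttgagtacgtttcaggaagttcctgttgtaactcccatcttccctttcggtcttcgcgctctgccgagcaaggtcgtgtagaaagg

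Atp5g2 and Atp5g3 held an NRF1 match, and Atp5g3 also an ERR alpha match on the other strand, whereas the windows of Atp5g1, Cox7a1, Cox7a2, Ndufc2 and Cox7c held none of the 5 letter strings. NRF1 is a known activator of respiratory chain genes. Of the 68 member genes with a window, 25.0% held the NRF1 string in at least 1 of their windows against 5.2% of the 27025 genes with a listed promoter, the ETS string 23.5% against 9.9%, the YY1 string 14.7% against 3.2%, the ERR alpha string 5.9% against 1.8%, and the TATA string 10.3% against 15.7%. The change from NSPs is given for members with and without a string as a description. At 72 h, the 17 tested members with an NRF1 match had a median log2 fold change of -0.87 and the 49 without one -0.71, with 16 and 37 called lower, and for the ETS string the medians were -0.72 with a match and -0.76 without. The 5 tested members with a TATA string had a median of -0.20, and 2 of them were lower.

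From 24 h to 72 h the decrease went on in part of the nuclear members. In this comparison 14 of 78 were lower and none higher, where 24.8% of all tested genes were called, 12.6% lower and 12.2% higher, and the median log2 fold change was -0.29 against -0.01. It was -0.13 without replicate 1 and -0.43 without replicate 3 at 72 h, and -0.16 without replicate 2 at 24 h. Cox6c, an accessory subunit of complex IV, had the largest drop, from 209, 285 and 233 CPM to 108, 142 and 178 CPM (log2 fold change -0.76, SE 0.19, adjusted p = 0.00558). Its groups did not overlap, as in 23 members that lay wholly lower at 72 h and 1 that lay wholly higher, against 20.3% and 21% of all tested genes. Ndufc2, Atp5mpl, Cox7b, Ndufa4, Cox7a2 and Ndufv3 followed with log2 fold changes of -0.67, -0.65, -0.63, -0.63, -0.60 and -0.58. Few of these calls were stable: 2 members were called without replicate 2 at 24 h, 3 without replicate 1 at 72 h and 4 without replicate 2 at 72 h (20.2%, 25.2% and 16.9% of all genes were called in these fits), and 1 of the 14 held in all 6 such fits.

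From 72 h to 1 week the nuclear members had a median log2 fold change of 0.04 (-0.11 to 0.16 when 1 library was left out) against 0.00 over all genes, with 1 higher and 1 lower where 6.63% of all tested genes were called, 2.68% higher and 3.96% lower. Ndufs3, a core subunit of the electron-carrying arm of complex I, had 94.1, 83.5 and 90.5 CPM in NSPs, 57.9, 61.9 and 53.2 CPM at 24 h, 47.9, 66.7 and 69.4 CPM at 72 h, and 103, 82.1 and 103 CPM at 1 week. The 1 week libraries lay on both sides of the NSP values, and 1 week did not pass the test against NSPs (log2 fold change 0.10, SE 0.13, adjusted p = 0.534). The rise from 72 h was 0.64 on the log2 scale (SE 0.13, adjusted p = 0.00603) and was called in all 6 fits without a library. Of its 75-base windows 28.2% occur in other annotated transcripts, mostly a pseudogene. The gene called lower was Ndufc2 (log2 fold change -0.68, SE 0.17, adjusted p = 0.0222), in 1 of 6 such fits. The count of called members was 1 without replicate 2 or 3 of 72 h or any 1 week library.

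The calls of mtDNA genes before 1 week depended on the libraries fitted. Of 9 tested, 1 was higher and none lower at 24 h, 3 were lower at 72 h and 5 at 1 week, where 25.5%, 27.2% and 29.1% of all tested genes were lower, so that the share at 72 h was near that of all genes. The 5 at 1 week include mt-Co3, whose counts were near the floor. With only the compared conditions fitted, 3 were higher and 3 lower at 24 h, and 1 was higher and 4 were lower at 72 h, where 9662 of 18092 and 9463 of 18034 tested genes were called in those fits. The fit over all conditions gave medians of the log2 fold change of -0.08, -0.35 and -1.31. With 1 library left out, the median ranged from -0.28 (without replicate 3 of NSPs) to 0.10 (without replicate 3 of 24 h) at 24 h, with no stable sign, from -0.64 (without replicate 3 of 72 h) to -0.25 at 72 h, and from -1.31 to -1.14 at 1 week. mt-Co1 had 9866, 9614 and 9385 CPM in NSPs, 7649, 7623 and 5576 CPM at 24 h, 4629, 6150 and 6984 CPM at 72 h, and 3575, 2945 and 4246 CPM at 1 week. The 1 week libraries were below every other condition. The log2 fold change from NSPs was -0.47 at 24 h (SE 0.23, adjusted p = 0.0982), -0.70 at 72 h (SE 0.23, adjusted p = 0.0162) and -1.42 at 1 week (SE 0.24, adjusted p = 4.93e-05). The call at 72 h was lost without replicate 1 of that condition (adjusted p = 0.0828).

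mt-Cytb, the mtDNA subunit of complex III, had 2184, 2115 and 1694 CPM in NSPs, 1947, 1555 and 1837 CPM at 24 h, 1313, 1251 and 1343 CPM at 72 h, and 752, 906 and 699 CPM at 1 week. It was called lower at 1 week (log2 fold change -1.35, SE 0.32, adjusted p = 0.0013) but not at 72 h (log2 fold change -0.62, adjusted p = 0.101). mt-Nd1, a complex I subunit, had 2052, 1555 and 1347 CPM in NSPs, 678, 820 and 918 CPM at 72 h and 661, 609 and 669 CPM at 1 week, and was lower at both times (log2 fold changes -1.04 and -1.35, adjusted p = 0.000848 and 6.34e-05). mt-Nd3 fell from 7.29 to 11 CPM (NSPs) to 2.74 to 5.09 CPM at 1 week, and mt-Co3 was called lower at 1 week on 1 to 5 counts a library against 7 to 12 in NSPs. With at most 0.755 CPM in any library, mt-Co3 passed the low-count filter only through conditions other than 1 week. Its call is therefore not support for a decrease, and it shares 99.9% of its windows with another transcript. All 5 mtDNA calls at 1 week, that of mt-Co3 included, held without any single library.

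Other complex I genes of mtDNA varied more between libraries. mt-Nd4 had 347, 216 and 198 CPM in NSPs, 758, 420 and 801 CPM at 24 h, 622, 417 and 374 CPM at 72 h, and 231, 460 and 229 CPM at 1 week. It was called higher at 24 h (log2 fold change 1.38, SE 0.44, adjusted p = 0.0131), a call lost without replicate 3 of NSPs or of 24 h. Since 61.5% of its 75-base windows also occur in other annotated transcripts, its counts are less certain. mt-Nd5 had 395 to 455 CPM in NSPs and 826, 418 and 1144 CPM at 24 h, with log2 fold changes of 0.92, 0.14 and -0.35 at the 3 times and no call. In the same 24 h libraries the mitochondrial ribosomal RNA left after depletion took 2.76%, 1.69% and 3.91% of counts, in the order of mt-Nd5. mt-Nd2 and mt-Nd6 were not called at any time. The part of this residual RNA in the values of mt-Nd4 and mt-Nd5 was not tested.

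Within a library, the ratio of mtDNA to nuclear member counts does not depend on scaling between libraries. The nuclear members took 1.24%, 1.24% and 1.26% of counts in NSPs, 0.864%, 1.06% and 0.829% at 24 h, 0.617%, 0.761% and 0.84% at 72 h, and 0.864%, 0.689% and 0.817% at 1 week. The mtDNA protein genes took 1.4%, 1.38% and 1.3% in NSPs, 1.33%, 1.17% and 1.1% at 24 h, 0.885%, 0.919% and 0.983% at 72 h, and 0.575%, 0.619% and 0.644% at 1 week. Nuclear counts had thus dropped by 24 h, and mtDNA counts reached their lowest at 1 week. The ratio was 1.13, 1.11 and 1.03 in NSPs, 1.54, 1.11 and 1.33 at 24 h, 1.43, 1.21 and 1.17 at 72 h, and 0.666, 0.899 and 0.788 at 1 week. The 1 week libraries lay below all other libraries, and the 72 h libraries all above the NSPs, while 24 h overlapped with NSPs. Without mt-Co1, which made up 49.5% to 69.8% of the mtDNA counts, the mean log2 ratio was -1.47 in NSPs (-1.68 to -1.30), -1.10 at 72 h (-1.40 to -0.63) and -1.70 at 1 week (-2.0 to -1.14), and both times overlapped with NSPs. Per kb, 72 h (-0.19 to 0.14) also overlapped with NSPs (-0.37 to -0.18), whereas 1 week (-0.97 to -0.50) lay below them.

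**Figure D4:**
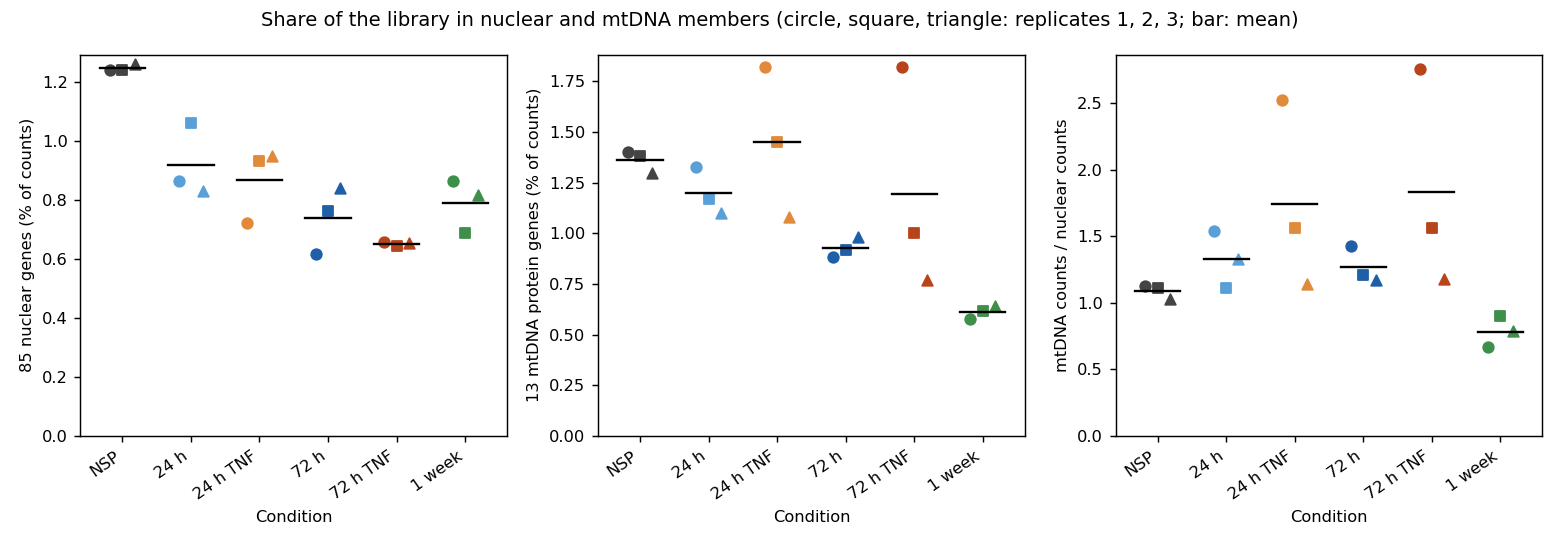
The panels give, for each of the 18 libraries, the percent of counts in the 85 nuclear members, the percent in the 13 mtDNA protein genes, and the ratio of the latter to the former, by condition. The nuclear share is highest in NSPs, the mtDNA share and the ratio are lowest at 1 week, and replicate 1 of each TNF condition has the highest ratio (2.52 and 2.76).

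TNF left the nuclear members without a call at 24 h. None of 78 was called, where 3.5% of all tested genes were called, 2.18% higher and 1.32% lower. DESeq2 also called none, and 1 member (Atp5l) had an unadjusted p under 0.05 in edgeR. The groups were apart, with TNF lower, in 2 members and, with TNF higher, in 1, against 10.1% and 10.7% of all tested genes. The median log2 fold change was -0.10, and 0.00 without replicate 1 at 24 h with TNF. Nfkbia, a direct target of TNF signalling, had risen in the same libraries from 27.4 ± 3.15 to 149 ± 13.1 CPM (SD, n = 3, log2 fold change 2.44, SE 0.17, adjusted p = 6.87e-08).

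At 72 h, 4 nuclear members were called under TNF, 1 higher and 3 lower (7 in DESeq2 and 2 with only the compared conditions fitted), where 9.56% of all tested genes were called, 4.35% higher and 5.21% lower. The groups were apart in 10 members with TNF lower and 2 with TNF higher, against 13.4% and 12.7% of all tested genes. Cox6b2 had 1.06, 0.919 and 0.879 CPM at 72 h and 4.16, 2.43 and 2.94 CPM at 72 h with TNF. The groups were apart, on 14 to 16 counts without TNF and 42 to 74 with it, and the log2 fold change was 1.74 (SE 0.38, adjusted p = 0.00535), a call made in all 6 fits without a library. With the replicate number as a block and replicate 3 of 72 h unpaired, neither Cox6b2 (log2 fold change 1.68, adjusted p = 0.0504) nor any other nuclear member was called, and calls over all 20067 tested genes went from 1919 to 986. At 24 h it had 0.377, 0.447 and 0.488 CPM without TNF and 1.2, 0.745 and 0.353 CPM with it (log2 fold change 0.79, SE 0.49, adjusted p = 0.549). The effect of TNF on it was not shown to differ between the times (log2 difference 0.95, SE 0.64, adjusted p = 0.647).

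The 3 lower genes were Ndufb10 and Ndufa3, accessory subunits of complex I, and Cox4i1. Ndufb10 had 42.3, 56.9 and 60.5 CPM at 72 h and 36.5, 34.9 and 34.6 CPM with TNF (log2 fold change -0.59, SE 0.15, adjusted p = 0.0137). Ndufa3 had 35.8, 49.5 and 53.4 CPM and 33, 30.8 and 28.4 CPM (log2 fold change -0.59, SE 0.16, adjusted p = 0.0285), and Cox4i1 255, 338 and 352 CPM and 229, 223 and 242 CPM (log2 fold change -0.45, SE 0.13, adjusted p = 0.0418). In all 3 genes the groups did not overlap, but replicate 1 without TNF lay near the treated libraries. With 1 library left out, the call held in 4 of 6 fits for Ndufb10 (lost without replicate 2 or 3 at 72 h), in 2 of 6 for Ndufa3 and in 1 of 6 for Cox4i1, with Ndufa3 lost without replicate 2 or 3 of either condition and Cox4i1 in every fit except that without replicate 1 at 72 h. That library had the lowest nuclear share of its condition, and without it 18 nuclear members were called, 1 higher and 17 lower, while 1 was called without replicate 2 or replicate 3 at 72 h and 2 without replicate 2 or replicate 3 at 72 h with TNF. Calls over all tested genes moved with the same libraries, to 14.2% without replicate 1, 4.67% and 5.08% without replicate 2 or 3 at 72 h, and 7.19% and 7.6% without replicate 2 or 3 at 72 h with TNF. The median log2 fold change of the 78 was -0.27 (-0.01 over all genes), with 73 of 78 below 0. It was -0.43 without replicate 1 and -0.14 without replicate 3 at 72 h, and -0.33 without replicate 1 at 72 h with TNF. For coding genes under 1000 bases, the median was -0.25 over all 815 tested and -0.28 over the 46 members of that length. Over the longer members it was -0.25, and over all tested coding genes -0.08. The decrease was thus near that of short coding genes in general. An unadjusted p under 0.05 was found for 24 of the 78 and for 5058 of all 20067 tested genes. In no member did the effect of TNF differ between 24 h and 72 h at an adjusted p under 0.05 in edgeR or in DESeq2, where 0.458% of all tested genes were called, 0.324% with a lower and 0.135% with a higher effect at 72 h, and 4 nuclear members had an unadjusted p under 0.05.

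The mtDNA genes had no call under TNF at either time, in edgeR or in DESeq2. At 24 h the median log2 fold change of the 9 genes was 0.24, and -0.11 without replicate 1 with TNF, and 1 gene, mt-Nd3, had an unadjusted p under 0.05. At 72 h all 9 fold changes were above 0 with a median of 0.49, and none had an unadjusted p under 0.05, whereas without replicate 1 of 72 h with TNF the median was -0.17. In that library mt-Nd5 was at 1725 CPM against 415 and 356 CPM in its replicates, mt-Nd4 at 1226 against 467 and 347 CPM, and mt-Co1 at 9734 against 5989 and 4523 CPM. Its mitochondrial ribosomal RNA took 6.18% of counts against 2.66% and 1.66%, and its share of protein-coding counts was 82.6%, the lowest of all libraries. The direction of the mtDNA genes under TNF thus turned on 1 library at each time.

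**Figure D5:**
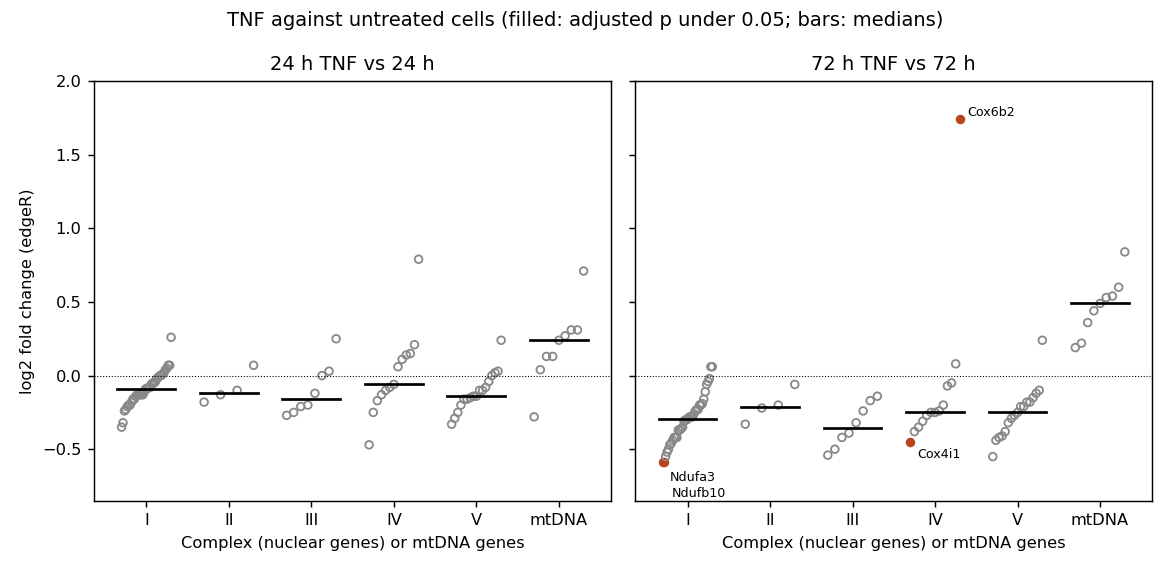
Points are the tested members with their edgeR log2 fold change of TNF-treated against untreated cells at 24 h and at 72 h, grouped as nuclear genes by complex and mtDNA genes, with bars for medians. At 24 h no point is filled. At 72 h 73 of 78 nuclear points lie below 0 with Cox6b2 far above, and the 9 mtDNA points lie above 0, where their median without replicate 1 of 72 h with TNF was -0.17.

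Other genes of the pathway, taken from lists chosen with earlier results of these data known, were counted beside the members. Over all tested genes, 25.5% were lower and 27.2% higher at 24 h, 27.2% and 28.1% at 72 h, and 29.1% and 29.6% at 1 week. Of 77 tested mitochondrial ribosomal protein genes, which translate the mtDNA messages, 67 were lower and 1 higher at 24 h, 62 and 1 at 72 h, and 65 and 2 at 1 week. Their median log2 fold change was -0.72, -0.70 and -0.66. From 24 h to 72 h, 1 of them was lower and 2 were higher, against 12.6% and 12.2% of all tested genes. Of 27 genes that maintain or express mtDNA, 17, 16 and 17 were lower and none higher. Among them Polg, the mtDNA polymerase, fell from 185 ± 3.98 CPM (NSPs) to 75.5 ± 1.56 CPM at 24 h, 60.6 ± 4.45 CPM at 72 h and 61.9 ± 3.56 CPM at 1 week (SD, n = 3 each, log2 fold changes -1.29, -1.61 and -1.58). Of 45 tested assembly factors of the complexes, 24, 26 and 23 were lower and 0, 0 and 1 higher, the higher one being Coa6, which helps deliver copper to complex IV. Ndufaf4, an assembly factor of complex I, went from 54.5 ± 21.9 to 18 ± 2.9 CPM at 24 h (log2 fold change -1.60).

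Of 17 tested genes for the mobile electron carriers and for subunits outside the symbol rule, 11, 10 and 9 were lower and 2, 3 and 3 higher. Cycs, cytochrome c, fell from 123 ± 47.5 CPM (NSPs) to 31.8 ± 8.79 CPM at 72 h (log2 fold change -1.95, SE 0.23, adjusted p = 9.91e-07). Coq8a and Coq8b, kinase-like proteins of coenzyme Q synthesis, rose, Coq8a from 6.61 ± 3.31 to 24.0 ± 0.825 CPM at 1 week (log2 fold change 1.85) and Coq8b from 16.1 ± 4.65 to 57.0 ± 7.11 CPM at 72 h (log2 fold change 1.82). Of 13 enzymes of the citric acid cycle, which feeds the chain with NADH and succinate, 8, 11 and 11 were lower and none higher. Cs, citrate synthase, fell from 627 ± 13.8 to 239 ± 28.4 CPM at 72 h (SD, n = 3 each, log2 fold change -1.39, SE 0.13, adjusted p = 5.25e-08).

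Of 7 regulators of these genes, 3, 2 and 3 were lower and 1, 2 and 2 higher, shares not far from those of all tested genes. Ppargc1a, the coactivator PGC-1 alpha known to raise mitochondrial content, was higher in each comparison with NSPs while most subunits were lower: 63.7 ± 4.93 CPM in NSPs, 131 ± 13.6 CPM at 24 h, 82.7 ± 6.26 CPM at 72 h and 83.6 ± 15.2 CPM at 1 week (log2 fold changes 1.04, 0.38 and 0.39, adjusted p = 6.39e-06, 0.0272 and 0.0204). Ppargc1b, its relative, rose from 1.24 ± 0.463 to 5.42 ± 1.21 CPM at 1 week (log2 fold change 2.13). Pprc1, another coactivator of the family, and Gabpb1, a subunit of an ETS factor that binds respiratory gene promoters, were lower at each time, with log2 fold changes at 72 h of -1.42 and -0.64, and under TNF at 72 h Gabpb1 was higher (log2 fold change 0.55, SE 0.16, adjusted p = 0.0319). Of the other lists under TNF at 72 h, 4 of 77 ribosomal protein genes, 2 of 17 carriers and 1 of 13 citric acid cycle enzymes were lower, and none of 45 assembly factors or 27 genes of mtDNA maintenance and expression, against 5.21% of all tested genes.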

How the data were processed

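RNA-seq was analysed from 18 libraries in 6 conditions with 3 replicates each. Total RNA was depleted of ribosomal RNA, and the authors made stranded libraries, trimmed the paired reads with Trim Galore, aligned them with STAR and obtained gene counts from featureCounts (build mm10, per the submitters' processing notes, versions not given in the sources used here). The deposited values are raw counts without normalization. Total counts ranged from 12509693 to 22549627, and precision is limited accordingly for genes near 1 CPM. Of 54838 identifiers, 54809 were matched to GENCODE M21 on GRCm38.

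edgeR 4.0.16 (limma 3.58.1, R 4.3.3) was fitted once over all libraries with TMM scaling, a mean per condition and the quasi-likelihood test, for the 20067 genes passing its filter. P-values were Benjamini-Hochberg adjusted over all tested genes with a threshold of 0.05. A standard error is the log2 fold change over the root of its F statistic. The study's own test, DESeq2 (1.42.0), was an alternative, as were RLE scaling, other count filters, scaling without mtDNA counts, fitting the compared groups only, the replicate number as a block, and leaving out each library. Levels are CPM with TMM, per kb of principal transcript where genes are compared. The members and all lists were chosen with earlier results of these data known. Named genes are the mtDNA genes, isoform families, up to 10 members per comparison and direction with the largest change among those called without overlap at 1 CPM or more, the 2 highest per complex, and up to 3 per pathway list. Not all that the rule allows are printed, and Atp5s, Uqcrfs1, Sdhc and Sdhd were added after their values were seen. The third 72 h library is the column numbered 4 in the table. No library was a duplicate of another of its condition, and pairs from different conditions were not compared. Sequence was computed in Python 3.11.15 (numpy 2.4.6, pandas 2.3.3), and figures used matplotlib 3.10.9.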

Additional observations from a re-analysis of the deposited data

How the results depend on the processing

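Counts of called members came out within 1.5 times of the reported ones under RLE scaling, with mtDNA counts left out of the scaling, with at least 10 counts in every library and with no filter beyond 5 counts in total, and no called direction reversed under any alternative, whereas the uncalled median of the mtDNA genes under TNF changed sign without replicate 1 of either TNF condition, as did the median of mtDNA genes at 24 h against NSPs and of nuclear members between 72 h and 1 week without single libraries. Under DESeq2 the nuclear members called for TNF at 72 h were 7, and 1 mtDNA gene was called between 72 h and 1 week. Fits of only the compared groups called 6 mtDNA genes at 24 h and 5 at 72 h against NSPs, 4 between 24 h and 72 h, 2 between 72 h and 1 week, and 2 nuclear members for TNF at 72 h. The cause was not tested.

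Replicate numbers did not pair the libraries: in no comparison were all 3 correlations of deviations above 0.1, and at most 4 of 6 libraries correlated best with their own number (1 of 6 between 72 h and 1 week). The replicate block gave 47 (24 h), 62 (72 h) and 60 (1 week) nuclear calls against NSPs and 3 for TNF at 72 h, and moved no count by over 1.5 times. With replicate 3 of 72 h unpaired, an alternative added after the data were seen, the block gave 2 mtDNA calls at 24 h against NSPs, 1 between 24 h and 72 h, 1 nuclear call between 72 h and 1 week, and 0 for TNF at 72 h.

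Leaving out 1 library in turn gave 31 to 54 nuclear calls at 24 h, 58 to 64 at 72 h and 55 to 66 at 1 week against NSPs, 2 to 20 between 24 h and 72 h, 1 to 3 between 72 h and 1 week, and 1 to 18 for TNF at 72 h. For mtDNA genes the ranges were 0 to 1, 2 to 3 and 5 to 6 against NSPs, 0 to 0 between 24 h and 72 h and 0 to 1 between 72 h and 1 week. For TNF at 24 h and the difference between times they were 0 to 0. The mean log2 ratio of mtDNA to nuclear counts ranged from 0.10 to 0.17 in NSPs, 0.28 to 0.52 at 24 h, 0.41 to 0.99 at 24 h with TNF, 0.25 to 0.40 at 72 h, 0.44 to 1.05 at 72 h with TNF and -0.47 to -0.25 at 1 week. From sums of CPM per kb it was -0.27 (NSPs), 0.00 (24 h), -0.07 (72 h) and -0.72 (1 week). Without mt-Co1 it was -1.47 in NSPs, -0.86 at 24 h, -0.62 at 24 h with TNF, -1.10 at 72 h, -0.56 at 72 h with TNF and -1.70 at 1 week. Depth limits Cox7a1, Cox6b2 and mt-Co3, which rest on few counts.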
